A study of Caenorhabditis elegans with 10 samples.

Results

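nep-1 of Caenorhabditis elegans encodes a neprilysin, and its transcript was followed across larvae and adults of the wild-type and of a nep-1 mutant. On the array used, an Affymetrix C. elegans array with short probes, 1 probe set is named for nep-1, 188537_s_at, out of 22548 that are not controls. The deposited lists name genes only for the probe sets they hold, so whether others read nep-1 cannot be told. They pair 188537_s_at with gene number 174787, which a RefSeq gene table of assembly WBcel235 gives as ZK20.6 on chromosome II. The suffix of its name marks a probe set whose probes can match more than 1 transcript. Its RMA value (a log2 summary of background-corrected, normalised probe intensities), scaled signal and detection call were read on all 10 arrays.

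Neprilysins are zinc metallopeptidases of the cell surface that cut small peptides and thereby end their action. In mammals they degrade enkephalins, tachykinins, natriuretic peptides and amyloid beta. In C. elegans, NEP-1 is known from the pharynx, the feeding organ, and from a head neuron, and it is known as an effector of pharyngeal pumping and locomotion.

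Total RNA came from whole worms grown at 20 °C on agar plates with E. coli OP50, so the arrays report the sum over all tissues. The wild-type was the Bristol strain. The mutant carried a nep-1 allele obtained by chemical mutagenesis with EMS. Array names write the mutant strain as BR2845 on larval mutant 1 and as 2815 on adult mutants 2 and 3, and the other mutant arrays name none, so whether larvae and adults were of the same strain cannot be told from the labels. L3 larvae were hybridised on 2 arrays per genotype and adults on 3 per genotype, each described in the titles as a biological replicate. Between 49.6% and 61.8% of the probe sets were called present on an array, and array medians lay between 5.82 and 6.09 on the log2 scale. By their names in the descriptions, the arrays fall into 5 pairs across genotype, 2 of larvae and 3 of adults. Adult wild-type 3 and adult mutant 1, the adult pair whose names carry no letter, stood apart: their mean correlations with the larval arrays were 0.903 and 0.891, against 0.830 to 0.837 for the other adult arrays. Results that use them are therefore also given without them.

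nep-1 was highest in wild-type larvae, intermediate in wild-type adults and low in the mutant at both stages. Larval wild-type 1 and 2 gave 8.19 and 9.17 on the log2 scale, with scaled signals of 517.7 and 1110.4. Adult wild-type 1, 2 and 3 gave 6.01, 6.85 and 7.32, with scaled signals of 68.5, 123.2 and 304.2. Every wild-type adult thus lay below both wild-type larvae, on both scales, and the array of the pair that stands apart was the highest of the adults. Larval mutant 1 and 2 gave 5.20 and 4.85, with scaled signals of 64.6 and 11. Adult mutant 1, 2 and 3 gave 5.05, 5.10 and 5.42, with scaled signals of 93.6, 25.5 and 57.7. All 5 mutant arrays lay below all 5 wild-type arrays on the log2 scale, but on the scaled signals adult mutant 1 exceeded adult wild-type 1. In whole-worm RNA, fewer cells that carry a transcript and less of it per cell cannot be told apart.

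**Figure D1:**
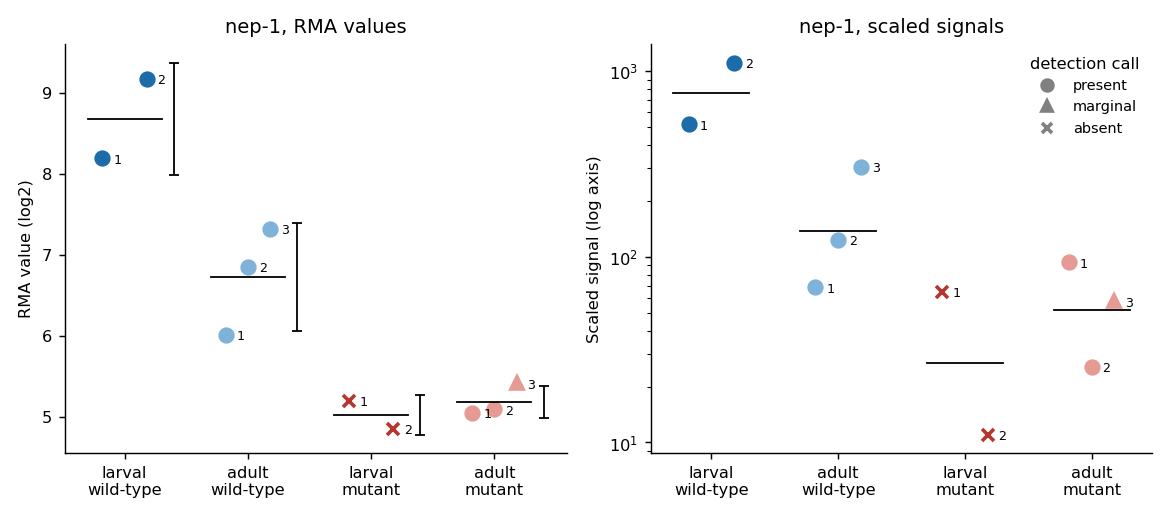
RMA values of nep-1 (left, log2) and scaled signals (right, log axis) on the 10 arrays, by group. Each point is an array with its replicate number, its shape gives the detection call, and lines are group means (geometric means on the right) with bars of 1 SD on the left. The 3 adult wild-type arrays sit between 6.01 and 7.32, below both larval wild-type arrays and above every mutant array.

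The group means ordered as larval wild-type, adult wild-type, adult mutant and larval mutant. They were 8.68 ± 0.69 (SD, n = 2), 6.73 ± 0.66 (SD, n = 3), 5.19 ± 0.20 (SD, n = 3) and 5.03 ± 0.25 (SD, n = 2) on the log2 scale. Between the lowest wild-type larva and the highest wild-type adult lay a gap of 0.87, and between the lowest wild-type adult and the highest mutant adult one of 0.60. The larval and adult mutant arrays overlapped, so these neighbours in the order did not differ beyond their spread. The mean scaled signals followed the same order, at 814 ± 419 (SD, n = 2), 165 ± 123 (SD, n = 3), 58.9 ± 34.1 (SD, n = 3) and 37.8 ± 37.9 (SD, n = 2).

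On the log2 values replicate spread was larger in the wild-type than in the mutant. The SD of nep-1 was higher than that of 93.1% of all probe sets in wild-type larvae and of 89.7% in wild-type adults, but higher than that of 49.4% and 28.0% in mutant larvae and adults. The scaled signals of mutant larvae, at 64.6 and 11, lay relatively further apart than those of wild-type larvae, at 517.7 and 1110.4. Larval wild-type 2 exceeded larval wild-type 1 by 0.98, a difference in that direction at least matched by 890 probe sets (3.95%).

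Placed among all probe sets, the larval wild-type mean of nep-1 was at the 85.8th percentile, rank 3202 from the highest. The adult wild-type mean was at the 59.2nd percentile, the adult mutant mean at the 38.5th and the larval mutant mean at the 33.5th. Probe sets differ in how well they hybridise, so these places describe the brightness of a probe set and not the abundance of a transcript. On single arrays the percentile ran from 81.3 and 89.1 in wild-type larvae through 51.9, 60.6 and 65.5 in wild-type adults. Mutant larvae reached percentiles of 36.4 and 30.7, and mutant adults lay between 35.0 and 44.0.

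Detection separated the larval genotypes completely and the adult ones less. nep-1 was called present on all 5 wild-type arrays, as were 9097 probe sets (40.3%), and absent on both larval mutant arrays, with deposited detection p-values of 0.246 and 0.466. In mutant adults it was present on arrays 1 and 2 (deposited detection p-values of 0.0461 and 0.0239) and marginal on array 3 (0.0562). Adult wild-type 1 carried the weakest present call of the wild-type, with the same deposited detection p of 0.0461 as adult mutant 1. Present on both larval wild-type and absent on both larval mutant arrays were 114 probe sets (0.506%), nep-1 among them. Only 7 probe sets (0.031%) had the matching pattern in adults, and nep-1 was not one of them.

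The probe sets called absent on an array show how bright an undetected transcript appeared there. In wild-type larvae nep-1 was above 99.9% and 99.99% of them, and in adult wild-type 2 and 3 above 99.3% and 99.5%. Adult wild-type 1 was lower, above 91.4% of the absent calls, and its value of 6.01 lay below the 95th percentile of those calls, at 6.39. The larval mutant arrays sat well inside the absent calls, above 63.9% and 62.0% of them. The adult mutant arrays lay above 75.9%, 85.6% and 86.0% of the absent calls, all below the 95th percentile.

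**Figure D2:**
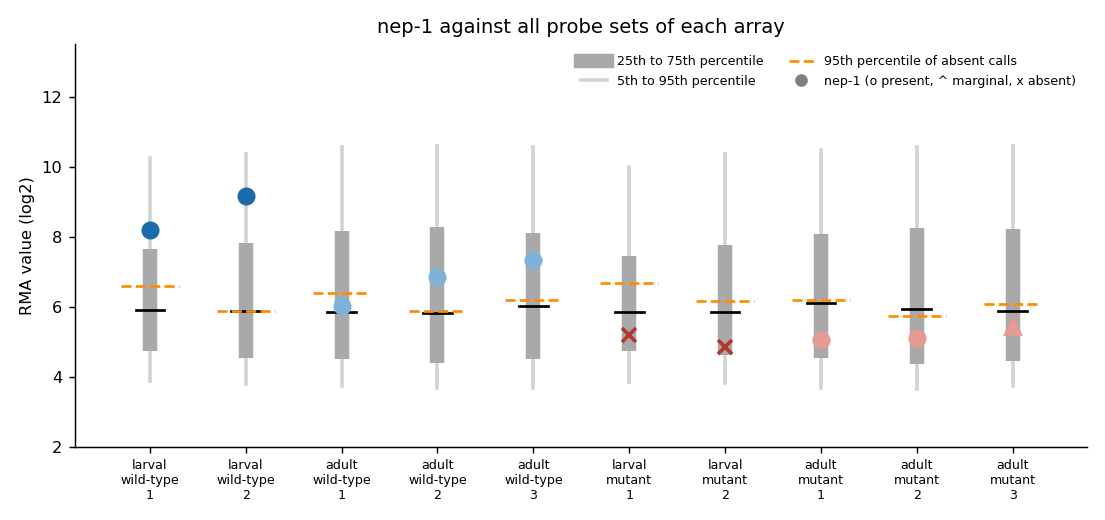
RMA value of nep-1 (log2, points) on each array against the spread of all probe sets (grey bars, with the median in black) and the 95th percentile of the probe sets called absent on that array (dashed). nep-1 clears the dashed line on 4 of the 5 wild-type arrays, the exception being adult wild-type 1, and on none of the mutant arrays.

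The wild-type stage comparison asks how much the transcript differs between L3 larvae and adults. nep-1 fell from larva to adult in the wild-type, with a log2 difference of −1.95 ± 0.41 (SE, 3 against 2 arrays), 3.87-fold as a ratio. It passed the threshold of 0.05, with limma's adjusted p = 0.0162 over all probe sets. The same call was made for 1249 probe sets (5.54%), and 2432 (10.8%) were called higher in adults. Without the adult pair that stands apart the counts were 2926 lower and 4068 higher. Under quantile normalisation they were 1716 lower and 1771 higher. An exact two-sided permutation test over the 5 wild-type arrays alone gave p = 0.1, the smallest that its 10 arrangements allow.

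All 6 single comparisons of a wild-type adult with a wild-type larva were negative, from −3.16 for adult 1 against larva 2 to −0.87 for adult 3 against larva 1. The scaled signals gave larva over adult ratios between 1.70 and 16.2, and 5.54 as the ratio of geometric means. Wild-type larvae and adults did not overlap in that direction for 6561 probe sets (29.1%) on the log2 values and for 5446 (24.2%) on the scaled signals, so that pattern alone is common. Measured from the larval mean, the adults lay at −2.67, −1.83 and −1.36 in order of replicate. The smallest fall belonged to adult wild-type 3, which also was the highest adult wild-type array for 801 (64.1%) of the probe sets called lower. The matching share over all probe sets was not counted, so this is not a trait of the falling ones. The median of adult wild-type 3 was 6.01, against 5.86 and 5.82 on adult wild-type 1 and 2. Without its pair the difference was −2.25, a 4.75-fold ratio, with limma's adjusted p = 0.00575. RNA quality was read from 5 worm control transcripts, whose mean 3′ minus 5′ difference measured 0.29 and 0.36 in wild-type larvae and 0.22, 0.35 and 0.53 in wild-type adults (log2), groups that overlapped.

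The call depends on which arrays are used. Without larval wild-type 2 the difference was −1.46, with limma's adjusted p = 0.114, and without adult wild-type 2 it was −2.01, with adjusted p = 0.0505. With scaled signals in place of RMA values it was −2.32 after adding 16 and −2.46 after adding 1 before taking log2, with limma's adjusted p = 0.0979 and 0.208. Each of these differences remained negative.

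**Figure D3:**
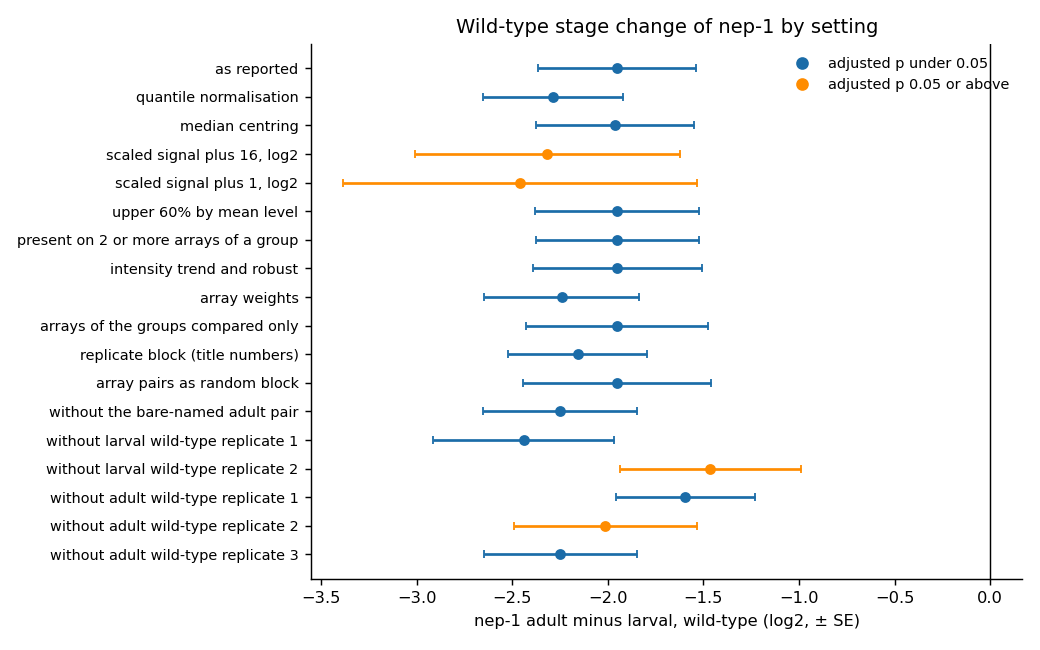
Wild-type stage difference of nep-1 (adult minus larval, log2; points with bars of 1 SE) as reported and under other settings, including each wild-type array left out. All points lie between −2.46 and −1.46, and 4 of the settings shown had an adjusted p at or above 0.05.

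Ranked from the most negative difference, nep-1 stood at place 454 of 22548, so 2.01% of the probe sets fell as far or further. By size in either direction it stood at 1601, and by p at 1681. The median difference of all probe sets was −0.07. Rises were the larger changes in this comparison, reaching 8.98, 8.82 and 8.78 for 171723_x_at, 184864_at and 172696_x_at. The most negative values were −4.62 for the collagen gene col-90, which did not pass the threshold (limma's adjusted p = 0.0716), −4.56 for 192674_s_at and −4.55 for 184194_s_at.

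The share of falls of this size was also counted in probe sets picked for their larval wild-type level. Such a choice uses the same larval arrays that enter the difference, so these shares are not evidence about brightness. Of the 10985 probe sets present on both larval wild-type arrays, 428 (3.90%) fell at least as far as nep-1. Of the 1029 whose larval wild-type mean was within 0.25 of that of nep-1, 61 (5.93%) did, and their median difference was 0.17. Among the 1249 called lower, where the median was −1.21, nep-1 was one of the larger falls, with 223 (17.9%) as far or further.

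Differences of the same size were not equally firm. Directly beside nep-1 in the ranking stood 172346_x_at, 178129_at and 192153_at with slightly larger falls and 177696_at, 186070_at and 187219_at with slightly smaller ones, all at −1.95 when rounded. Of these 6, 192153_at and 186070_at passed the threshold (limma's adjusted p = 0.0213 and 0.0057), and the others had adjusted p from 0.05 to 0.38. The SE of nep-1 itself was larger than that of 71.0% of all probe sets.

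**Figure D4:**
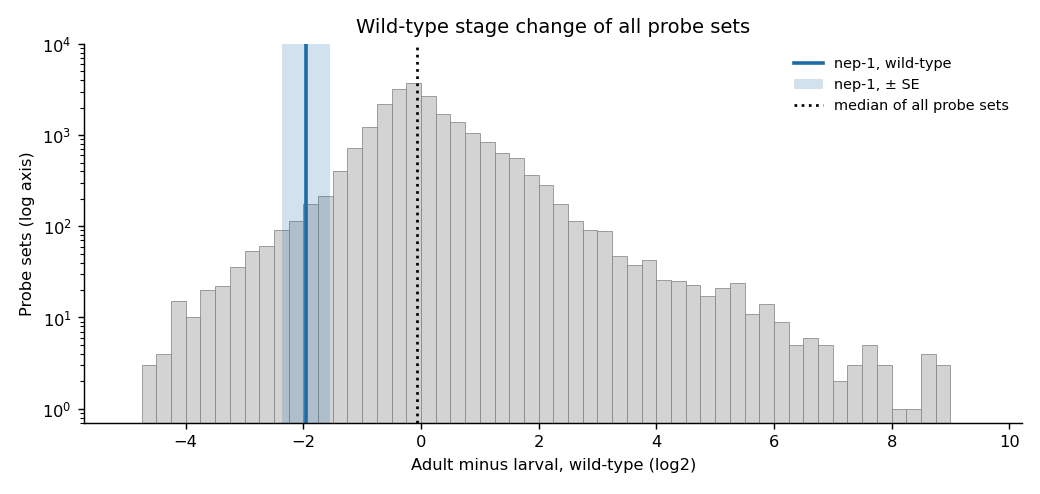
Number of probe sets (log axis) by adult minus larval difference in the wild-type (log2, bins of 0.25). The blue line marks nep-1 at −1.95 with a band of 1 SE, and the dotted line the median of all probe sets at −0.07.

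In the mutant no stage difference of nep-1 was detected. The adult mean differed from the larval mean by 0.16 ± 0.41 (SE), with limma's adjusted p = 0.820, place 13328 from the lowest. Against the larval mutant mean the adults lay at 0.025, 0.067 and 0.39, and 1344 probe sets (5.96%) were called lower and 2466 (10.9%) higher in the mutant comparison. Both larval mutant arrays were called absent, which limits how far a fall could be measured. Without the pair that stands apart the value was 0.23, and without larval mutant 2 it was −0.014. On the scaled signals it was 0.57 after adding 16 and 0.91 after adding 1, with limma's adjusted p = 0.724 and 0.671.

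Most probe sets that fell in the wild-type moved the same way in the mutant. The mutant arrays are other arrays, but the fit shares its estimate of spread over both genotypes. The arrays are also paired across genotype, so the calls in wild-type and mutant are not independent. Of the 1249 called lower in the wild-type, 785 (62.9%) were also called lower in the mutant, against 5.96% of all probe sets. The median mutant difference of the 1249 was −1.06, against −0.019 over all probe sets. Only 6 (0.480%) had a mutant difference above 0, nep-1 among them. The place of nep-1 there rests on larval mutant arrays called absent, and without larval mutant 2 its mutant difference was −0.014. One other of the 6, 189980_at, had a mutant difference as high as that of nep-1, at 0.25, with −1.41 in the wild-type. That count was made after the values were seen. It was 10 of 2926 without the pair that stands apart, 3 of 1716 with quantile normalisation and 2 of 1286 with median centring, with nep-1 included each time.

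The difference between the stage changes of mutant and wild-type was 2.11 ± 0.58 (SE) and did not pass the threshold (limma's adjusted p = 1, unadjusted p = 0.00596). It was the 16th largest in size and the third smallest by p. No probe set passed in this interaction, while at an unadjusted p under 0.05 there were 48 positive (0.213%) and 44 negative values (0.195%). Without the adult pair that stands apart it was 2.48.

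The genotype comparisons ask how far the transcript differs between mutant and wild-type at each stage. In larvae nep-1 was lower in the mutant by −3.65 ± 0.45 (SE, 2 against 2 arrays), with the smallest p of all probe sets. Its value and that of 173014_at were the 2 lowest of all; both were called absent on the larval mutant arrays, so their order was not measured. The group means gave a 12.6-fold ratio, and on the scaled signals the array pairs gave ratios of 8.01 and 101. Both larval mutant arrays were called absent, so the mutant level behind these ratios was not measured. The lowest present-called value of each mutant array, 3.37 or 3.38, lay below its nep-1 value and so set no floor. limma's adjusted p was 0.603, with 0 probe sets past the threshold while 80 (0.355%) were lower and 70 (0.31%) higher at an unadjusted p under 0.05. In the array pairs the differences were −2.99 and −4.31. With array pairs as a random block limma's adjusted p was 0.0559, and as a fixed block 0.653. The mutant and wild-type larvae did not overlap, as was the case in this direction for 2845 probe sets (12.6%).

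In adults the difference was smaller, at −1.54 ± 0.37 (SE, 3 against 3 arrays), a 2.91-fold ratio. Its limma adjusted p was 1 (unadjusted p = 0.00264), the smallest p of all probe sets, with 0 probe sets past the threshold while 30 (0.133%) were lower and 39 (0.173%) higher at an unadjusted p under 0.05. By value it was the seventh lowest. In the pairs of letters A and B the differences were −0.92 and −1.43, at places 182 and 4 from the lowest, and in the pair that stands apart −2.27, at place 108. Without that pair the adult difference was −1.17, with limma's unadjusted p = 0.0216. Adult arrays of the 2 genotypes did not overlap in this direction for 440 probe sets (1.95%) on the log2 values, nep-1 included, and for 416 (1.84%) on the scaled signals, where nep-1 did overlap.

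The authors' deposited table of array comparisons calls nep-1 decreased in the mutant in all 4 larval comparisons, with signal log2 ratios of −2.4, −3.7, −5.1 and −6.4. Only 12 probe sets (0.0532%) had that call in every larval comparison. Of the 9 adult comparisons in the authors' deposited table, 7 were called decreased, a count reached by 9 probe sets (0.0399%). The other 2 were called unchanged and set adult mutant 1 against adult wild-type 1 and 2, with deposited log2 ratios of 0.1 and −0.6. Adult mutant 1 had the highest scaled signal of the mutant arrays and a 3′ minus 5′ control difference of 0.83, the largest of the 10 arrays. The part of that in the 2 unchanged calls was not tested.

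Across the 10 arrays, the values of 1 other probe set ran close to those of nep-1. Likeness was measured as Pearson's r of the log2 values over the 10 arrays, among 4861 probe sets whose SD was at least 0.75, a share of 0.5 of that of nep-1. The arrays share their 4 groups, so r is a description. The median r was −0.17, and only 173014_at reached 0.9, at 0.92. The files give it no gene, and probe sequences were not used here, so whether it reads the nep-1 transcript itself, a neighbouring one or another gene was not tested. Its values therefore cannot be taken as those of a second gene. It was 7.62 and 8.97 in wild-type larvae, 6.01, 7.38 and 8.05 in wild-type adults, 3.95 and 4.01 in mutant larvae and 5.74, 5.05 and 5.81 in mutant adults. As for nep-1, larval wild-type 2 was the highest array and adult wild-type 1 the lowest of the wild-type, and all mutant arrays lay below all wild-type arrays.

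The likeness also held within the wild-type groups, but less so in the mutant. For deviations from the group means, pooled over all groups, r of 173014_at with nep-1 was 0.93, the highest of the 4861, whose median was 0.01. In mutant larvae 1 and 2, nep-1 was 5.20 and 4.85 while 173014_at was 3.95 and 4.01, all called absent. Mutant adults 1 and 2 were also in opposite order, at 5.05 and 5.10 for nep-1 and 5.74 and 5.05 for 173014_at. Without the adult pair that stands apart, r of the log2 values was 0.94, again the highest. Both computations were added after the first r had been seen.

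The values of 173014_at and nep-1 were not alike everywhere, and the differences between them were not tested. 173014_at was absent on both larval mutant arrays but present on all 3 adult mutant arrays, and its mutant stage difference was 1.55 ± 0.60 (SE, limma's adjusted p = 0.110). In the wild-type its stage difference was −1.15 ± 0.60 (SE, adjusted p = 0.217), so it was not called lower, and adult wild-type 3 at 8.05 lay above larval wild-type 1 at 7.62. Its larval genotype difference was −4.32 ± 0.65 (SE, limma's adjusted p = 1), a 19.9-fold ratio of group means with the mutant level called absent. Among the 114 probe sets present in wild-type and absent in mutant larvae, the next fitted difference was −1.32, for 181407_at. In adults 173014_at differed by −1.61 ± 0.53 (SE), the fourth lowest.

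173014_at and nep-1 were the 2 probe sets lower in the mutant by at least 0.92 in all 5 array pairs. That cut was the smallest fall of nep-1 itself, so nep-1 passed it by construction and the count is a description only. Lower by any amount in all 5 pairs were 1018 probe sets (4.51%). 173014_at and nep-1 were also the 2 with both kinds of decreased call in the authors' deposited table, at least 7 of 9 in adults and 4 of 4 in larvae. That is 16.7% of the larval and 22.2% of the adult set.

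**Figure D5:**
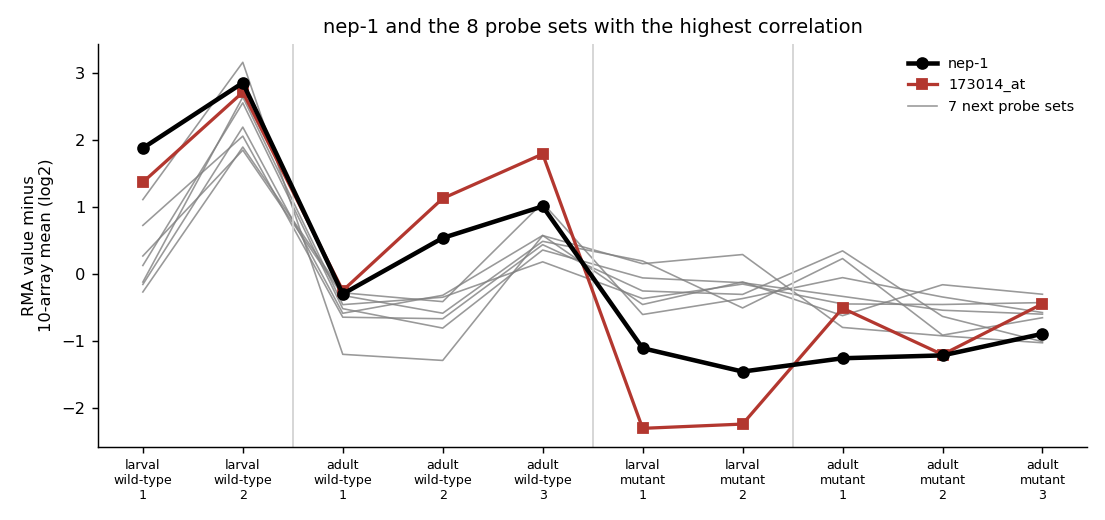
RMA values minus the mean of the 10 arrays (log2) for nep-1 (black), 173014_at (red) and the 7 probe sets with the next highest r (grey), by array, with lines between groups. 173014_at follows nep-1 up and down within the wild-type groups, while all 7 grey lines peak at larval wild-type 2.

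After it came 185693_at (W02F12.2) at r = 0.77, 177934_s_at and 184236_at at 0.75, 178406_at and 180418_at at 0.74, and 173664_at and 190317_at at 0.73. All of these had larval wild-type 2 as their highest array. The other named ones are 180418_at for lpr-7, a lipocalin-related gene, and 173664_at for mab-7, known from the shaping of the male tail. Of these named genes, lpr-7 fell in wild-type adults, with a difference of −2.78 ± 0.67 (SE, limma's adjusted p = 0.0262). W02F12.2 measured −1.69 ± 0.53 (SE, adjusted p = 0.0635) and mab-7 −0.69 ± 0.63 (SE, adjusted p = 0.482). The next named probe sets were F13B12.4 at r = 0.70, with a wild-type stage difference of −2.32 (limma's adjusted p = 0.0482), the collagen gene col-54 at 0.70 and C04F1.1 at 0.68. The most opposed probe sets reached −0.65 (185398_at), −0.60 (190966_at) and −0.57 (180628_at and 175262_at).

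Few other genes of peptide signalling could be read by name, because gene names come with the files for just the transcripts that the authors listed as changed. Of 26 neprilysin symbols in the reference table, nep-1 alone had a named probe set. Of the neuropeptide precursors only nlp-8 did, at −0.66 ± 0.70 (SE, limma's adjusted p = 0.553) from larva to adult in the wild-type. Of the other peptidases only the astacin metallopeptidase gene nas-6 did, at −2.26 ± 0.90 (SE, adjusted p = 0.119). None of the listed peptide-processing enzymes or neuropeptide receptors was named.

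Markers of tissue were equally scarce, and those of germ line, sperm, pharynx muscle, neurons, body wall muscle and intestine had no named probe set. The pharyngeal cuticle list, genes of the lining of the feeding organ, had 5 named probe sets, of which 1 was called lower in wild-type adults, against 5.54% of all probe sets. That was pqn-13, with a difference of −3.59 ± 0.98 (SE, limma's adjusted p = 0.0404). The other 4 measured between −3.71 for abu-13 (adjusted p = 0.0676) and −1.61 for a probe set of abu-8. The larval cuticle list had 5, of which 1 was called lower, the collagen gene rol-6 with a difference of −3.64 ± 0.87 (SE, limma's adjusted p = 0.0257). The others measured from −4.10 ± 1.57 (SE, adjusted p = 0.109) for dpy-5 to −0.44 for col-77. Adult wild-type 3 was high in these lists: dpy-5 was 12.5 on it against 7.50 and 6.40 on the other adult wild-type arrays, and abu-14 was 10.3 against 6.40 and 5.34. These genes are named because the study had chosen them on these arrays, so their direction is no independent evidence, and their part in the fall of nep-1 was not tested.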

How the data were processed

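The deposited log2 values come from RMA, as named without a version in the submitters' processing notes. Per the file headers, the authors' comparison tables list a scaled signal, a detection call with its p-value, and a signal log2 ratio and change call for each mutant and wild-type array; their software and build are not given in the sources used here. Another 30 columns of per-array values, over all tables, were not used; 24 of them repeated mutant signals or detections exactly.

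The log2 values were not normalised again. limma 3.58.1 in R 4.3.3 fitted 4 group means over 10 arrays and 22548 probe sets (77 controls left out) without a filter, with 6 residual and 2.57 prior degrees of freedom (median residual SD 0.35). Benjamini-Hochberg adjustment ran over all probe sets within a contrast, at a threshold of 0.05. Alternatives were other normalisations, scaled signals, filters on dim probe sets, a robust fit with intensity trend, array weights, blocks, and arrays left out. Tables were handled in Python 3.11.15, and the fit was tested on simulated data. The number of arrays limits the precision.

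nep-1 and the gene lists were chosen with earlier results of these data known. Named were nep-1, the 8 highest and 4 lowest correlations with it, the 6 highest among named genes, 3 neighbours on each side and 3 extremes of each end of the stage ranking, and named list members. Of 196 listed probe sets, 152 had a single named gene. Title numbers were not taken to pair the stages (correlations of deviations 0.059 and 0.084 in the wild-type, 0.13 and 0.11 in the mutant) or the adults (−0.54, −0.22 and −0.65), whereas the pairs by array name gave 0.56 in larvae and 0.61 to 0.65 in adults. No sequences or coordinates are given.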

Additional observations from a re-analysis of the deposited data

Results flagged for a closer look

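Measured from the larval mean, all adult log2 values of nep-1 lay on opposite sides in the genotypes. No stage difference was detected in the mutant, however, and its larval and adult arrays overlapped. Every wild-type adult lay below the wild-type larval mean, by −2.67, −1.83 and −1.36, and every mutant adult above the mutant larval mean, by 0.025, 0.067 and 0.39 (log2). The pattern did not hold on the scaled signals, where adult mutant 2, at 25.5, lay below the larval mutant mean of 37.8. The tested difference between these changes, 2.11, had limma's adjusted p = 1. Both larval mutant arrays were called absent.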

How the results depend on the processing

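The wild-type stage difference of nep-1 stayed negative under all 22 other settings and past the threshold in 18; leaving out each array gave −2.44 to −1.46 (limma's adjusted p = 0.0103 to 0.114) and other settings −2.46 to −1.95 (0.00385 to 0.208). It lost the threshold on the scaled signals (−2.32 with 16 added, −2.46 with 1) and without larval wild-type 2 or adult wild-type 2. The last 2 settings also use fewer arrays, and the cause was not tested. The replicate block by title number, which matches the array pairs in larvae but not in adults, gave −2.16 (limma's adjusted p = 0.0234) and 698 lower calls. Array pairs as a random block gave adjusted p = 0.0275. The mutant stage difference reversed to −0.045 under that replicate block, rose to 0.57 and 0.91 on the scaled signals with 16 and 1 added (never past the threshold), and without single arrays ranged from −0.014 to 0.34. No setting moved a genotype difference or the interaction past the threshold: without single arrays they were −4.14 to −3.16 in larvae, −1.90 to −1.24 in adults and 1.62 to 2.60, and otherwise −4.76 to −3.61, −1.61 to −1.16 and 2.0 to 3.37. The larval difference came near it with array pairs as a random block (limma's adjusted p = 0.0559), but not with pairs as a fixed block (0.653).

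Probe sets called lower, 1249 as reported, numbered 164 and 19 on the scaled signals with 16 and 1 added, 764 in the upper 60% by mean level (fewer tested), 3134 with array weights and 2926 without the adult pair that stands apart. Those called higher, 2432 as reported, numbered 694, 376, 4073 and 4068 on the same signals, weights and arrays. Without single arrays they ranged from 265 to 2247 and from 716 to 3439: lower and higher calls were 284 and 716 without larval wild-type 1, 265 and 829 without larval wild-type 2, 417 and 1300 without adult wild-type 1, and 336 and 1161 without adult wild-type 2, and lower calls 2247 without adult mutant 1. The place of nep-1 in the stage ranking ran from 1.42% to 3.95%. Its level percentile without single arrays was 81.3 to 89.1 in wild-type larvae, 56.7 to 62.7 in wild-type adults, 30.7 to 36.4 in mutant larvae and 36.0 to 41.2 in mutant adults. Among the upper 60% it was 76.3, 32.0, 4.12 and 2.49. Among probe sets present on 2 or more arrays of the group it was 71.0, 27.6 and 7.24, with no value in mutant larvae, and on scaled signals 46.5 in mutant adults. Both filters drop dim probe sets. The count of opposite mutant values, 6, was 10 without the pair that stands apart, 3 with quantile normalisation and 2 with median centring, alternatives added after the data had been seen.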
